A study of Homo sapiens with 6 samples.

Results

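The genes described here encode the MHC class I presentation machinery of the cell: the heavy chains HLA-B, HLA-C, HLA-E and HLA-F, the light chain B2M, the peptide transporter subunits TAP1 and TAP2, the loading factor tapasin (TAPBP) and the transcriptional coactivator NLRC5. They were chosen by name as known parts of this pathway, with earlier results of these data known. All 9 of 9 were found among the 19899 genes of the deposited table. The sequenced RNA came from COV434, an established human ovarian tumour line that the labels call parental and that the series' title places under SCCOHT, the hypercalcemic small cell carcinoma of the ovary. The Control group (n = 3) received an empty pCDNA3-neo plasmid and the BRG1 group (n = 3) received the PBJ5-BRG1 plasmid, which carries BRG1 (SMARCA4), the ATPase of the SWI/SNF chromatin remodelling complex. Both groups also received a puromycin-resistance plasmid and were selected in puromycin at 2 to 3 µg/ml from 24 hours after transfection for 3 days. BRG1 was therefore supplied transiently from a plasmid in 1 cell line, and the samples are bulk cultures in which fewer cells of a kind and less RNA per cell cannot be told apart.

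A class I molecule is a heavy chain bound to β2-microglobulin and to a short peptide. Peptides are made in the cytosol by the proteasome, pumped into the endoplasmic reticulum by the TAP1-TAP2 transporter and placed on the heavy chain with the help of tapasin, after which the complex moves to the cell surface and is read by CD8+ T cells. NLRC5 is known as a coactivator that acts at class I promoters, and interferons, in part through IRF1, are known inducers of the whole pathway.

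The DNA around the start of these genes was searched for exact matches to the letters of some known kinds of regulatory motif. RefSeq windows of 300 bases (GRCh38.p14, 250 bases before and 50 after each annotated start) were matched for 7 of the 9 genes, with 8 windows in all because TAP1 has a pair. The B2M and TAP2 promoters are shown as the longer examples, followed by the short sites of the other genes, all 5′ to 3′ on the strand of the gene and without annotated UTR beyond a site. Capitals mark matches, on either strand, to the IRF type motif GAAANNGAA or the kappaB type motif GGGNNTTCC. The B2M stretch lies at chr15:44711267-44711508 (plus strand) and the TAP2 stretch at chr6:32838740-32838989 (minus strand).
B2M: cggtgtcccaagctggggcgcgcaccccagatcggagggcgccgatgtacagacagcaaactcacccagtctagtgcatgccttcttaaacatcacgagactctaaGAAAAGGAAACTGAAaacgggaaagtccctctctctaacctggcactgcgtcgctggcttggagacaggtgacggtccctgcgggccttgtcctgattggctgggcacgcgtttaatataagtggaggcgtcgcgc
TAP2: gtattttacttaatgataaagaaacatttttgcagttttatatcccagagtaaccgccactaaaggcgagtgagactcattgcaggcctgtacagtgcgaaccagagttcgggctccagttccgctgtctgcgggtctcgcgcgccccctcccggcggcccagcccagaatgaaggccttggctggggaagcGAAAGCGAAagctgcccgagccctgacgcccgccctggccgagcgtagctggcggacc
The IRF type sites of HLA-F (chr6:29723269-29723297, plus), TAP1 (second window, chr6:32853816-32853844, minus) and TAPBP (chr6:33314079-33314105, minus), and the kappaB type site of HLA-B (chr6:31357338-31357366, minus), read as follows.
HLA-F: tccccagagtTTCTCTTTCtctcccaacc
TAP1: ggccgctTTCGATTTCGCTTTCccctaaa
TAPBP: tttggagGAAAGTGAAAGTGAAaggag
HLA-B: gcgcagcgttGGGGATTCCccactcccct
The IRF type motif was found in 5 of the 7 genes (HLA-F, B2M, TAP1, TAP2 and TAPBP) and in 8.11% of all 35116 windows. In B2M, TAP1 and TAPBP it occurred as overlapping copies, in B2M between positions -144 and -130 from the start. The kappaB type was found in 3 of the 7 (HLA-B, B2M and TAPBP, in B2M across the start itself) and in 6.58% of all windows. CCAAT was found in 5 of the 7 (34.6% of all windows) and the X2 type motif TGACG in 4 of the 7 (24.6%), among them HLA-B and HLA-C, which held no IRF type match in these windows. The GAS type motif TTCNNNGAA was found in 1 of the 7, TAP1 (7.66% of all windows), and the AP-1 type motif TGANTCA in 0 of the 7 (7.71%). No match of one motif overlapped a match of another in these windows. These are matches of letters only, and binding was not measured. Sites that depart from the letters searched were not counted, so a window without a match is not shown to lack that kind of site.

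SMARCA4 itself was checked first. Its normalised read count was 1439, 1676 and 1538 in Control samples 1, 2 and 3 and 108655, 79075 and 78589 in BRG1 samples 1, 2 and 3, which is 5.84 ± 0.18 (SE) as a log2 fold change. Its adjusted p was 5.4e-216. Total estimated counts ran from 29699741 (BRG1 sample 3) to 63613710 (BRG1 sample 1). Of the lists of cell type markers, 2 of 11 immune and endothelial genes (7 with an adjusted p) were called higher in BRG1, against 11.0% of all genes, VWF (44.8 ± 32.0 to 3498 ± 238, SD, n = 3) and LYZ (1.06 ± 1.25 to 19.0 ± 4.57). The summed level of that list was 1955 to 2897 in Control and 5668 to 7601 in BRG1 samples. CD68, the highest of that list in Control, was at 1736 ± 700 in Control and 2757 ± 812 in BRG1. It was not called (DESeq2 adjusted p = 0.217), but it was with the replicate block (DESeq2 0.00132, edgeR 0.0343). PTPRC, the pan-leukocyte marker CD45, was at 505 ± 167 and 520 ± 185, and CD3D, CD3E and MS4A1, which define T and B cells, had at most 3 counts in every sample. Of 6 granulosa cell markers (4 with an adjusted p), 1 was called higher, against 11.0% of all genes. It was the aromatase gene CYP19A1 (23.3 ± 8.03 to 322 ± 115). The defining markers FOXL2 and FSHR had at most 3 counts in every sample of both groups, and STAR had few. AMH (295 ± 90.7 and 408 ± 59.8) and INHA (41.9 ± 4.91 and 38.2 ± 3.20) were detected and not called. The summed level of this list ran from 294 to 475 in Control and from 643 to 926 in BRG1. Without BRG1 sample 2, 1 of the 11 immune and endothelial genes was called, and 3 with the replicate block, and without Control sample 3, 2 of the 6 granulosa genes. The part of these marker genes in the results below was not tested.

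All 9 class I presentation genes were higher with BRG1. Each was called higher (adjusted p under 0.05, DESeq2 Wald test with Benjamini-Hochberg adjustment over 15991 genes) against 11.0% of all genes tested, and 0 of the 9 were called lower, with 0 at an unadjusted p under 0.05, against 1.84%. The quasi-likelihood test of edgeR also called 9 of 9 higher, against 9.57% of all genes it tested, and 0 lower. In all 9 the lowest BRG1 sample lay above the highest Control sample, as in 16.7% of all genes tested. The median log2 fold change of the 9 was 1.70, where the median of all genes tested was -0.01. Together these genes took 0.153%, 0.138% and 0.124% of all counts in Control samples 1, 2 and 3 and 0.596%, 0.590% and 0.487% in BRG1 samples 1, 2 and 3.

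**Figure D1:**
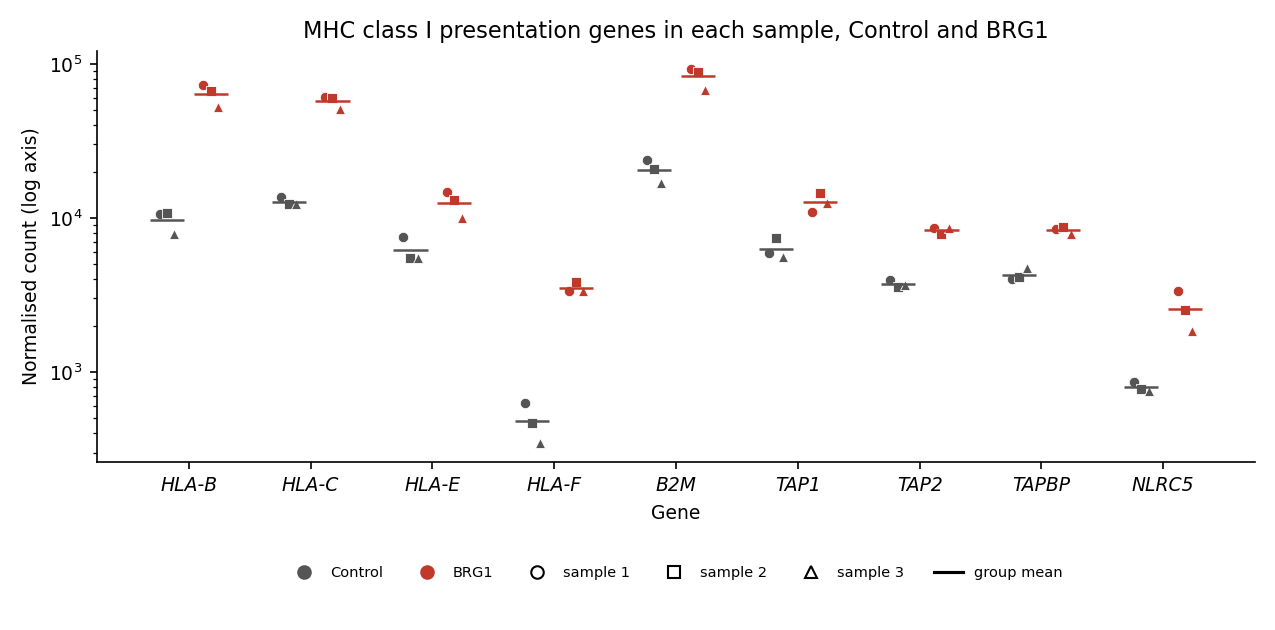
Normalised read count (log scale) of each of the 9 class I presentation genes in the 3 Control and 3 BRG1 samples. Every BRG1 sample sits above every Control sample for each gene, with the narrowest gap for HLA-E and the widest for HLA-F.

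The classical heavy chains, which present peptide to CD8+ T cells, had large changes. HLA-B (chr6:31353872-31367067, minus strand, GENCODE release 44 on GRCh38) had 10580, 10737 and 7910 normalised counts in Control samples 1, 2 and 3 and 72857, 66521 and 52462 in BRG1 samples 1, 2 and 3. The lowest BRG1 sample was 4.89 times the highest Control sample. Its mean of 9742 ± 1589 in Control stood against 63947 ± 10439 in BRG1 (SD, n = 3). On the log2 scale it rose by 2.71 ± 0.20 (SE), with adjusted p = 1.6e-39 in DESeq2 and 0.00011 in edgeR. HLA-C (chr6:31268749-31272130, minus strand) had 13641, 12277 and 12329 counts in Control and 60736, 60441 and 51320 in BRG1 samples. The groups were again far apart, and HLA-C rose by 2.17 ± 0.14 on the log2 scale (adjusted p = 1.4e-54 in DESeq2, 4.9e-05 in edgeR).

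The non-classical heavy chains HLA-E and HLA-F rose by 1.02 and 2.89 on the log2 scale. HLA-E (chr6:30489509-30494194, plus strand), a ligand of the NKG2A receptor of natural killer cells, had 7570, 5519 and 5481 counts in Control and 14631, 13094 and 9942 in BRG1 samples. Control sample 1 was the highest of its group and BRG1 sample 3 the lowest of its own, and the ratio between these was 1.31. Its log2 fold change was 1.02 ± 0.22 (DESeq2 adjusted p = 4.5e-05, edgeR 0.00998). HLA-F (chr6:29722775-29738528, plus strand) had 627, 466 and 345 counts in Control and 3380, 3850 and 3372 in BRG1 samples. The BRG1 samples were close together and the Control samples were not, and the log2 fold change (SE 0.24) was the highest of the 9 (DESeq2 adjusted p = 1.1e-31, edgeR 0.000225).

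The heavy chain genes took different shares of their summed counts in the groups, as counts not divided by length. Of the sum of these 4 heavy chain genes, HLA-B took 32.6%, 37.0% and 30.3% in Control samples and 48.1%, 46.2% and 44.8% in BRG1 samples. HLA-E took 23.4%, 19.0% and 21.0% in Control and 9.65%, 9.10% and 8.49% in BRG1 samples. HLA-F went from between 1.32% and 1.94% to between 2.23% and 2.88%. These groups did not overlap, whereas the share of HLA-C did, at 42.1%, 42.3% and 47.3% in Control and 40.1%, 42.0% and 43.8% in BRG1. The ratio of HLA-B to HLA-E counts was 1.60 ± 0.30 in Control and 5.11 ± 0.15 in BRG1 (SD, n = 3), the ratio of HLA-F to HLA-E 0.0767 ± 0.0119 and 0.288 ± 0.054, and the ratio of HLA-B to HLA-C 0.764 ± 0.117 and 1.11 ± 0.09. Each of these ratios had p = 0.1 in a two-sided exact permutation test, the smallest p that 3 against 3 samples allow, and 0.16 after Benjamini-Hochberg adjustment over the 8 ratios compared, so none could pass 0.05 in this design.

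**Figure D2:**
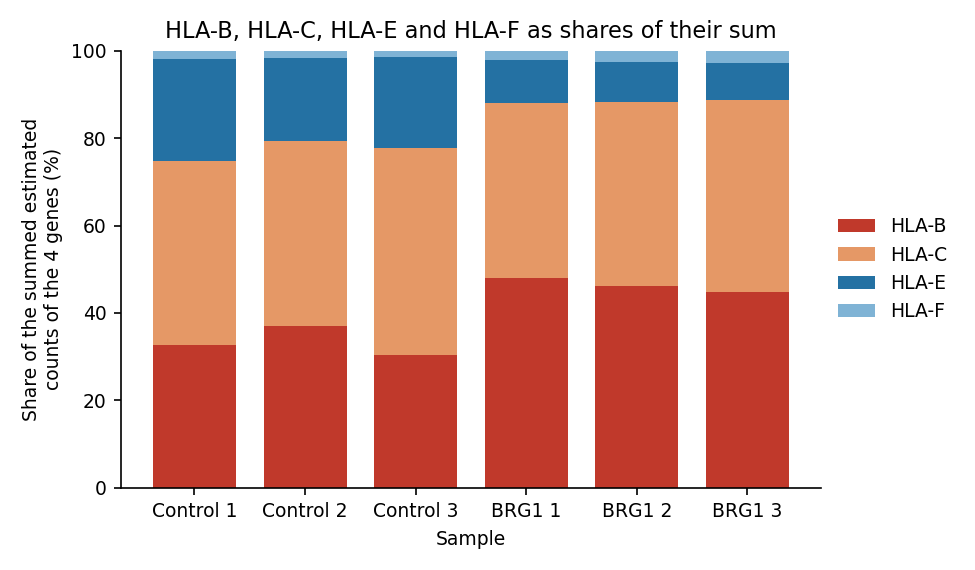
Share of the summed estimated counts of HLA-B, HLA-C, HLA-E and HLA-F taken by each gene, in percent, for the 3 Control and 3 BRG1 samples. HLA-E takes 19.0% to 23.4% in Control and 8.49% to 9.65% in BRG1 samples, and HLA-B takes the highest share in every BRG1 sample.

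B2M (chr15:44711358-44718851, plus strand), the invariant light chain of class I molecules, had the highest mean level per kilobase of the 9 in both groups. It had 23744, 20661 and 16892 counts in Control and 92096, 89244 and 67930 in BRG1 samples. Sample 3 was the lowest of each group, and the log2 fold change was 2.02 ± 0.20 (DESeq2 adjusted p = 2.7e-22, edgeR 0.000288). The ratio of B2M to HLA-C counts was 1.60 ± 0.20 in Control and 1.44 ± 0.10 in BRG1, with overlapping groups (exact permutation p = 0.3, adjusted 0.4).

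The genes of peptide transport and loading rose by 0.96 to 1.17 on the log2 scale. TAP1 (chr6:32845209-32853816, minus strand) had 5879, 7386 and 5569 counts in Control and 10891, 14512 and 12564 in BRG1 samples, with sample 2 the highest of both groups. Its log2 fold change was 1.01 ± 0.19 (DESeq2 adjusted p = 1.2e-06, edgeR 0.00529). TAP2 (chr6:32821833-32838739, minus strand), the partner subunit, had 3935, 3545 and 3678 counts in Control and 8557, 7895 and 8642 in BRG1 samples. Both groups were tight, and TAP2 rose by 1.17 ± 0.12 on the log2 scale (adjusted p = 1.1e-20 in DESeq2, 0.000369 in edgeR). TAPBP (chr6:33299694-33314284, minus strand), which bridges the transporter and the empty heavy chain, had 4009, 4122 and 4747 counts in Control and 8417, 8784 and 7849 in BRG1 samples. Its log2 fold change of 0.96 ± 0.14 was the lowest of the 9 (DESeq2 adjusted p = 5.7e-11, edgeR 0.00112). The ratio of TAP1 to TAP2 was 1.70 ± 0.33 in Control and 1.52 ± 0.29 in BRG1 (exact permutation p = 0.5, adjusted 0.571), and that of TAP1 to TAPBP 1.48 ± 0.31 and 1.52 ± 0.19 (p = 0.8, adjusted 0.8). The ratio of HLA-B to TAP1 was 1.56 ± 0.21 and 5.15 ± 1.35 without overlap (exact permutation p = 0.1, the smallest possible here, adjusted 0.16). It restates the difference between their log2 fold changes. The ratios were not among the planned tests.

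NLRC5 (chr16:56989485-57083531, plus strand), the coactivator, had 861, 770 and 756 counts in Control and 3356, 2534 and 1840 in BRG1 samples. The Control samples were alike while the BRG1 samples spread over a wide range, with a mean of 2577 ± 759 against 796 ± 57.2 in Control. Its log2 fold change was 1.70 ± 0.24 (DESeq2 adjusted p = 8.0e-11, edgeR 0.00174). The ratio of NLRC5 to HLA-B was 0.0829 ± 0.0120 in Control and 0.0397 ± 0.0057 in BRG1 (exact permutation p = 0.1, adjusted 0.16).

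**Figure D3:**
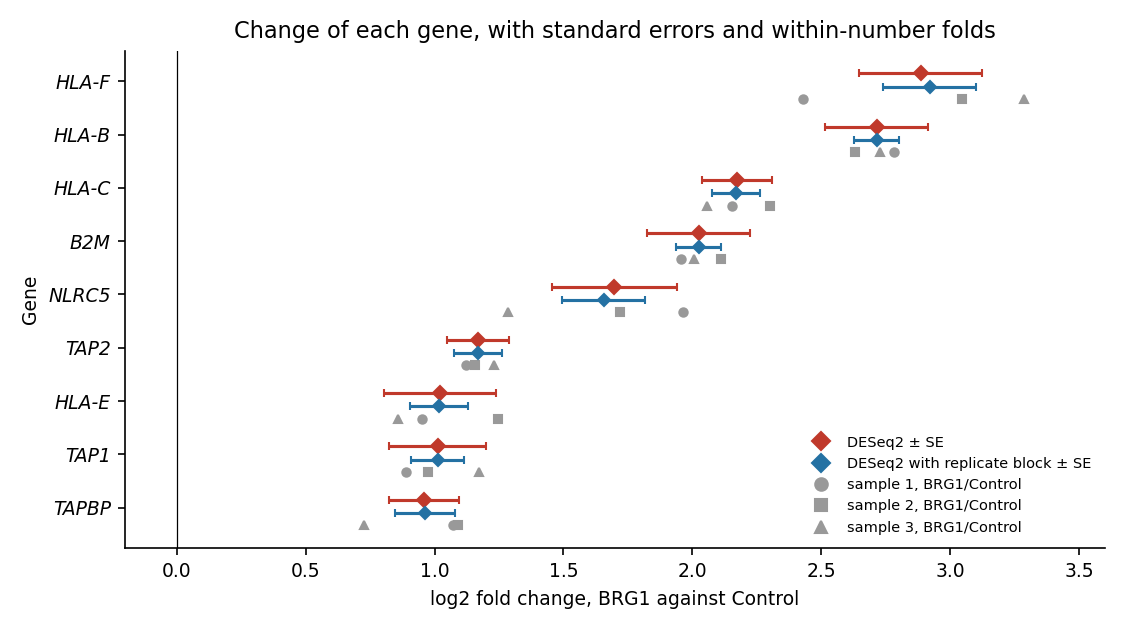
Log2 fold change of BRG1 against Control for the 9 genes with its standard error from DESeq2 (red, and blue with the replicate block), and the log2 ratio of BRG1 to Control within each replicate number (grey). HLA-F, HLA-B, HLA-C and B2M lie above 2, and HLA-E lies near 1 with TAP1, TAP2 and TAPBP.

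The samples themselves differed in a shared way. The mean over the 9 genes of log2(normalised count + 1) was 12.22, 12.09 and 11.95 in Control samples 1, 2 and 3 and 13.92, 13.90 and 13.65 in BRG1 samples 1, 2 and 3. BRG1 sample 3 was the lowest of its group in 7 of the 9 genes, the exceptions being TAP1 and TAP2. It was the lowest for SMARCA4 too, and the share of all genes in which it was lowest was not counted. BRG1 sample 3 was also the sample with the fewest total counts, and the part of depth in this was not tested. Within each replicate number, BRG1 over Control was 6.89, 6.20 and 6.63 for HLA-B and 3.88, 4.32 and 4.02 for B2M. HLA-F ran from 5.39 to 9.77 and NLRC5 from 2.44 to 3.90. With the replicate number as a block, 9 of 9 genes were called higher and 0 lower, against 13.4% and 6.62% of all genes tested.

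Divided by the length of the longest annotated transcript, so that genes can be compared, the levels in Control samples followed the order B2M (8773 normalised counts per kilobase), HLA-C (6781), HLA-B (2747), HLA-E (2429), TAP1 (2248), TAPBP (1039), TAP2 (600), HLA-F (310) and NLRC5 (117). In BRG1 samples B2M (35676), HLA-C (30585) and HLA-B (18028) again led, followed by HLA-E (4928), TAP1 (4531), HLA-F (2289), TAPBP (2020), TAP2 (1350) and NLRC5 (378). At this length B2M and HLA-C overlapped in their ranges per kilobase in both groups. HLA-B, HLA-E and TAP1 in Control overlapped in their ranges per kilobase, as did HLA-E and TAP1 in BRG1. With the canonical transcript in place of the longest, an alternative chosen after seeing the data, HLA-B per kilobase became 6343 in Control and 41632 in BRG1, and HLA-C 8268 and 37289. HLA-B then stood above HLA-C in BRG1 by its mean, though their ranges overlapped (34155 to 47433 and 33281 to 39388), so their order depends on the transcript assumed. B2M was at 21667 in Control and 88112 in BRG1 at that length and no longer overlapped HLA-C. HLA-F in BRG1 stood just below TAPBP (2388 against 2420). Divided by the merged exons, HLA-F was at 111 in Control and 819 in BRG1, below TAPBP (1256) in BRG1, NLRC5 was at 64.2 in Control, and HLA-B (2107) and HLA-E (2118) changed places in Control. The top of the order, B2M, and its last gene, NLRC5, were the same at all 3 lengths by their means.

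Some of these genes share sequence or position with others. Of the exonic bases of HLA-B, 47.3% overlap other annotated genes, 30.7% the pseudogene DHFRP2, and of TAP2 35.0% of the read-length words (78 bases) of the canonical transcript also occur in the overlapping gene ENSG00000250264. HLA-F, TAPBP and TAP1 overlap other genes over 28.0%, 21.0% and 14.2% of their exonic bases, and the libraries did not keep strand. Shared words were at most 1.94% in the other 8 genes. No read-length word of the canonical HLA-B transcript occurred in another gene. Words were matched exactly between reference transcripts, each read on its own strand. Similar sequence with mismatches, alleles other than the reference and overlap on the opposite strand were not covered. The estimated counts could divide shared reads between genes, and the levels of TAP2, and of the genes with overlap, are uncertain to that extent. How far reads were divided among the heavy chain genes was not tested, and their shares and ratios carry this uncertainty.

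Other genes of the pathway, and genes only related to it such as co-signalling ligands, were read from 6 lists. These lists hold 71 genes, of which 70 were in the table and 64 had an adjusted p. DESeq2 called 21 of them higher and 2 lower, and edgeR 14 and 0, where over all genes tested DESeq2 called 11.0% higher and 1.84% lower and edgeR 9.57% higher. The 2 called lower of 64 are near the share over all genes. The lists had a median log2 fold change of 0.44, or 0.35 with genes near 0 in Control set to their bounds. No list was compared with other genes by a test.

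The genes of the immunoproteasome and its activator replace or cap the standard proteasome and change the peptides made. All 5 were called higher by DESeq2 and 4 of 5 by edgeR, against 11.0% and 9.57% of all genes tested. Their median log2 fold change was 0.94. PSMB9, a catalytic subunit, had 380, 403 and 273 counts in Control and 2244, 2201 and 1734 in BRG1 samples (log2 fold change 2.55 ± 0.22). PSME1 and PSME2, the activator subunits, rose by 0.94 ± 0.13 and 0.63 ± 0.17 on the same scale. PSMB8 rose from only 7.0 ± 3.8 to 27.5 ± 4.6 counts (DESeq2 adjusted p = 0.0287, edgeR 0.0473), and with the replicate block its DESeq2 adjusted p was 0.0765. The gene that edgeR did not call was PSMB10, named after its values were seen. Its log2 fold change was 0.35 ± 0.13 (DESeq2 adjusted p = 0.0490, edgeR 0.145 and, with the block, 0.0402). Without BRG1 sample 2 or Control sample 1, 2 of the 5 passed the threshold, and 3 passed without BRG1 sample 1, BRG1 sample 3 or Control sample 3. Of the 3 constitutive counterparts 0 were called higher and PSMB5 was called lower (log2 fold change -0.37 ± 0.12, DESeq2 adjusted p = 0.0266, edgeR 0.0674 and, with the block, 0.0242). With the replicate block 2 of the 3 were called lower, PSMB5 and PSMB6, the second named after its values were seen. Over all genes tested, DESeq2 called 1.84% lower, and 6.62% with the block. Without any 1 sample other than BRG1 sample 3, 0 of the 3 were called.

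Peptide trimming and loading genes other than the 9 moved in part. Of 12, 3 were called higher: the aminopeptidases ERAP1 (1243 ± 138 to 3070 ± 360, log2 fold change 1.30 ± 0.17) and ERAP2 (26.4 ± 1.7 to 184 ± 87.4, 2.81 ± 0.46), which cut peptides to length in the endoplasmic reticulum, and the tapasin relative TAPBPL (46.8 ± 20.4 to 214 ± 31.9, 2.22 ± 0.37). UGGT1, the glycoprotein quality sensor, was called lower by DESeq2 (-0.39 ± 0.14, adjusted p = 0.0429) and not by edgeR (0.0809, or 0.0252 with the block), nor by DESeq2 without any 1 sample other than BRG1 sample 3. Over all genes tested, DESeq2 called 11.0% higher and 1.84% lower. The median of this list was 0.11. General chaperones of the endoplasmic reticulum were among those not called, such as CALR at 69539 ± 11936 and 72105 ± 10597 counts, an example chosen after its values were seen.

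Of 16 regulators of class I transcription, 2 were called higher by DESeq2, 0 by edgeR (2 at an unadjusted p under 0.05) and 4 with the replicate block in either tool, and the median log2 fold change was -0.03. Over all genes tested, DESeq2 called 13.4% higher with the block. With 11.0% of all genes called higher by DESeq2 without it, 2 of 16 is near the background. The genes called by DESeq2 were IRF2 (0.51 ± 0.17), an interferon regulatory factor, and NFYB (0.44 ± 0.16), a subunit of the factor that binds CCAAT. With the block edgeR called both (adjusted p = 0.0251 and 0.0254). IRF1, named here after its values were seen, had 6400, 5760 and 570 counts in Control and 14244, 16698 and 2233 in BRG1 samples. Sample 3 was far below the others in both groups, so the groups overlapped and it was not called (log2 fold change 1.38 ± 1.13, DESeq2 adjusted p = 0.586). Within each replicate number BRG1 was the higher, by 2.23, 2.90 and 3.92 times, and with the replicate block it was called (DESeq2 adjusted p = 1.1e-21, edgeR 0.000565). NFKB1 (adjusted p = 0.00483, higher) and EZH2 (0.0178, lower) were likewise called by DESeq2 only with the block. Without BRG1 sample 2, or any 1 Control sample, 0 of the 16 were called higher in the unblocked DESeq2 fit, and 1 was without BRG1 sample 1.

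Class I related surface molecules, a list of 19 genes that includes ligands of natural killer cell receptors, held 4 called higher by DESeq2 and 2 by edgeR, against 11.0% and 9.57% of all genes. An adjusted p was given for 14 of the 19, and 5 genes of the list had at most 3 counts in every sample. RAET1E, an NKG2D ligand, was at least 9.14-fold higher, taking 3 counts in each Control library as the floor. PROCR rose by 1.26 ± 0.34 on the log2 scale, and the NKG2D ligand MICA (0.51 ± 0.18) and MR1 (0.49 ± 0.18), which presents vitamin metabolites, were called by DESeq2 and not by edgeR. With the replicate block both tools called 5 of the 19 higher, where DESeq2 with the block called 13.4% of all genes higher. With the block edgeR called MICA (adjusted p = 0.0489) and MR1 (0.0159). Without BRG1 sample 1, 1 of the 19 was called, and 2 were called without BRG1 sample 2 or any 1 Control sample. The median of this list was 0.79, or 0.76 at the bounds.

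Co-signalling and adhesion ligands, which T cells read together with class I, held 7 of 15 called higher by DESeq2 and 5 by edgeR. Over all genes tested the shares called higher were 11.0% and 9.57%. In this list 0 were called lower, against 1.84% of all genes by DESeq2. An adjusted p was given for 14 of the 15, and the median log2 fold change was 0.69. CD274, which encodes the checkpoint ligand PD-L1, had 12.2, 10.6 and 12.1 counts in Control and 907, 748 and 193 in BRG1 samples, a log2 fold change of 5.73 ± 0.55. PDCD1LG2 (PD-L2) had no count in any Control sample and 327, 227 and 82.1 in BRG1 samples, at least 67.3-fold higher against the same floor. LGALS9, which encodes galectin-9, rose from 9.58 ± 6.38 to 757 ± 400 counts, and CD47, which signals to phagocytes, from 343 ± 43.6 to 1693 ± 620. BRG1 sample 3 was the lowest of its group for each of these 4 genes, as for most of the class I genes. Without BRG1 sample 2, 4 of the 15 were called.

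**Figure D4:**
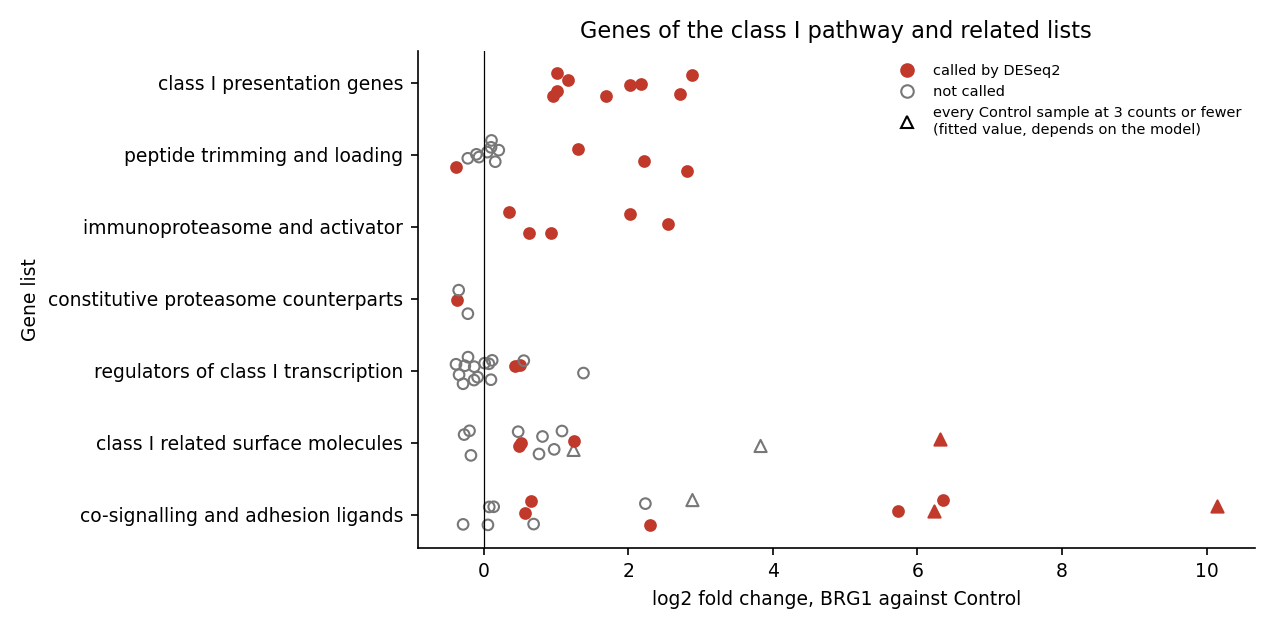
Log2 fold change of BRG1 against Control (DESeq2) for the 9 class I presentation genes and the genes of 6 further lists, filled where called at adjusted p under 0.05. Triangles are genes with at most 3 counts in every Control sample, whose fitted value is no bound, and all 9 class I presentation genes are filled and lie to the right of 0.

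Over the 6 samples, the genes whose log2(normalised count + 1) followed the mean of the 9 most closely, among 11677 with a mean count of at least 100, were KRT6A, CST1, PALM2-AKAP2, LAP3 and CST2, with Pearson r from 0.998 to 0.999. Of these 11677 genes 142 had r of at least 0.99, and the points share the split into 2 groups, so the likeness is a description. LAP3, a leucine aminopeptidase, went from 3136 to 9770 normalised counts, and the keratin gene KRT6A from 322 to 99167. The mean count was taken over all 6 samples, and the other genes named passed this filter only through their BRG1 samples. Their Control means were 11.6 (CST1), 6.55 (PALM2-AKAP2) and 0.41 (CST2), so their r rests on low Control values against a high group.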

How the data were processed

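RNA-seq was made from COV434 cells with an unstranded poly(A) protocol from 500 ng of RNA and read as paired ends of 78 bases. Per the methods and the submitters' processing notes, reads were checked with FastQC 0.11.5, aligned with STAR 2.5.3a to hg38 and quantified with Salmon 0.8.2, and the deposited table holds estimated counts per gene that the authors summarised with tximport from length-scaled TPM. All 6 columns were used. The estimated counts were rounded and fitted with DESeq2 1.42.0 (the study used 1.22.2), with no covariate. edgeR 4.0.16 and limma 3.58.1 (voom) were alternatives. Normalised counts are counts divided by DESeq2 size factors. Standard errors are from the fit and SDs from 3 samples. The samples are described as biological replicates without further detail, so p-values measure the spread between these samples.

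The replicate number was used as a pairing in the block fits only. Over 14220 genes the deviations from the group means of same-numbered samples correlated at 0.341, 0.298 and 0.459. For differently numbered samples the correlations ran from -0.362 to 0.0694. The deviations cancel within each group, so these values are not independent. The labels give the number and do not say what it marks.

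The genes and lists were chosen with earlier results of these data known. All 9 members are named, from each list up to 4 genes called higher and 4 called lower with the lowest p, and the 5 genes most like the members' mean. For 1 symbol no row was found, and 3 genes of the lists are not reported here and are left out of the lists' counts. In simulated counts the share of false calls from DESeq2 exceeded its threshold, so edgeR is given beside it. Gene positions and lengths come from GENCODE release 44 (GRCh38), which is later than the annotation behind the counts. The length of the canonical transcript was added as an alternative after seeing the data.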

Additional observations from a re-analysis of the deposited data

How the results depend on the processing

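All 9 genes kept their direction and stayed past the threshold in each of the 12 alternative fits: DESeq2 with TMM factors, a filter of at least 10 counts in at least 3 samples, edgeR, limma-voom, both tools with the replicate block, and leaving out each sample. The largest adjusted p was 0.00998 (HLA-E, edgeR), and HLA-E ran from 0.90 to 1.19 on the log2 scale. The members' median ran from 1.46 to 1.89 over the fits without 1 sample. With a log2 fold change of at least 1 as an added condition, 8 of the 9 were called, without TAPBP. The 21 genes of the other lists called higher became 12 with that condition and 11 to 21 without 1 sample (11 without BRG1 sample 2, 12 without Control sample 1, 13 without BRG1 sample 1). The 2 called lower became 0 under edgeR, limma-voom, an adjusted p under 0.01 or the fold condition, 0 to 2 without 1 sample (0 in each case but without BRG1 sample 3), and 4 with the replicate block in either tool. With the replicate block the genes called higher in those lists numbered 24. Over all genes tested, DESeq2 with the block called 13.4% higher and 6.62% lower, and the 4 called lower are near that share. The block changed no call of the 9 genes, and for other genes the text names the changes in DESeq2 or edgeR stand beside their values. The cause of these changes was not tested. Each of the 9 genes was at 345 or more normalised counts in every sample, while PSMB8, LYZ and RAET1E rest on few counts. The part of depth in the results was not tested.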
